A study of Neurospora crassa with 24 samples.

Results

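The genes described here are the catalases and superoxide dismutases of *Neurospora crassa*, 5 loci chosen by name out of the 9730 loci in each expression table. They are *cat-1* (NCU08791), *cat-2* (NCU05770), *cat-3* (NCU00355), *sod-1* (NCU02133) and *sod-2* (NCU01213), and all 5 were among the 7981 genes tested. RNA-Seq was performed on mycelia of 3 strains in 4 media, with duplicate cultures for each of the 12 combinations and 24 libraries in all. The strains were the wild type (WT), the Δ*rco-3* mutant, which lacks a sugar transporter-like glucose sensor of the plasma membrane, and the Δ*col-26* mutant, which lacks a zinc binuclear cluster transcription factor. The labels give the strain background OR74A for all 3, and per the methods the mutants are stock center deletion strains of mating type a, so that each genotype is represented by a single strain and mating type was not varied independently. All cultures were grown from conidia for 16 h at 28 °C on 2% sucrose, washed, and moved for 1 h to medium with no carbon source or with 0.05, 0.5 or 2% glucose. The sucrose culture before the shift is shared by every group, and no library represents it. Each level below is an FPKM value (the fragments of a gene scaled by transcript length and by library size), which allows levels of different genes to be compared.

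Superoxide arises from stray electrons of respiration and from NADPH oxidases. Superoxide dismutases turn it into hydrogen peroxide and oxygen, and catalases split the peroxide into water and oxygen. *sod-1* encodes the copper/zinc enzyme of the cytosol and *sod-2* the manganese enzyme of mitochondria. CAT-1 and CAT-3 are large-subunit catalases, the former known from conidia and the latter from growing hyphae, and CAT-2 is a bifunctional catalase-peroxidase. Conidia are the asexual spores of the fungus, and oxidative stress and their formation are closely linked in this species.

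The labels were first checked against the deleted genes. For *rco-3* (NCU02582), each of the 8 libraries of its deletion strain had an FPKM of 0. *col-26* (NCU07788) was not at 0 in the libraries labelled Δ*col-26*, where it ranged from 4.91 to 10.6 FPKM, below the WT in each medium, so these values alone do not establish the deletion. The 4 mycelium markers (*hex-1*, *act*, *tba-2* and *gpd-1*) were present in every library, with summed levels of 7118 to 18452 FPKM. Duplicate libraries correlated with r of 0.998 to 0.999 over the genes tested, and relative depths read from the steps between low values lay between 0.962 and 1.03 of the median library. Scaling matters for small differences: dividing each library by its median ratio to all others moved the median of all genes by between -0.57 and 0.22 on the log2 scale, depending on the comparison. The extremes were Δ*rco-3* *vs.* WT and 0.05 *vs.* 0.5% glucose in the WT. RNA came from whole mycelium, in which fewer cells of a type and less RNA per cell cannot be told apart.

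By position on the NC12 assembly, *cat-1* lies on chromosome III at 5111604 to 5114534 and *cat-3* on the same chromosome at 3561379 to 3564584. *cat-2* lies on chromosome VII at 3764986 to 3767954, *sod-1* on chromosome I at 1135057 to 1136630 and *sod-2* on chromosome V at 3262280 to 3265413. None of the 5 overlaps another annotated gene.

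The 5 genes differed widely in level and in how far the level moved. *sod-1* was the most abundant in every group, with group means from 541 to 1327 FPKM, a 2.45-fold range, and it stood between places 39 and 200 of the 9730 loci. *sod-2* was lower and moved as little, from 21.1 to 47.9 FPKM (2.27-fold). The catalases moved far more. The group means of *cat-1* spanned 3.48 to 135 FPKM (38.9-fold), those of *cat-2* 3.02 to 313 FPKM (104-fold) and those of *cat-3* 7.76 to 153 FPKM (19.7-fold). The SD of the duplicates was at most 5.57% of the mean for *cat-3*, *sod-1* and *sod-2*, at most 10.3% for *cat-1* and at most 22.8% for *cat-2*, the last in the WT at 0.5% glucose.

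**Figure D1:**
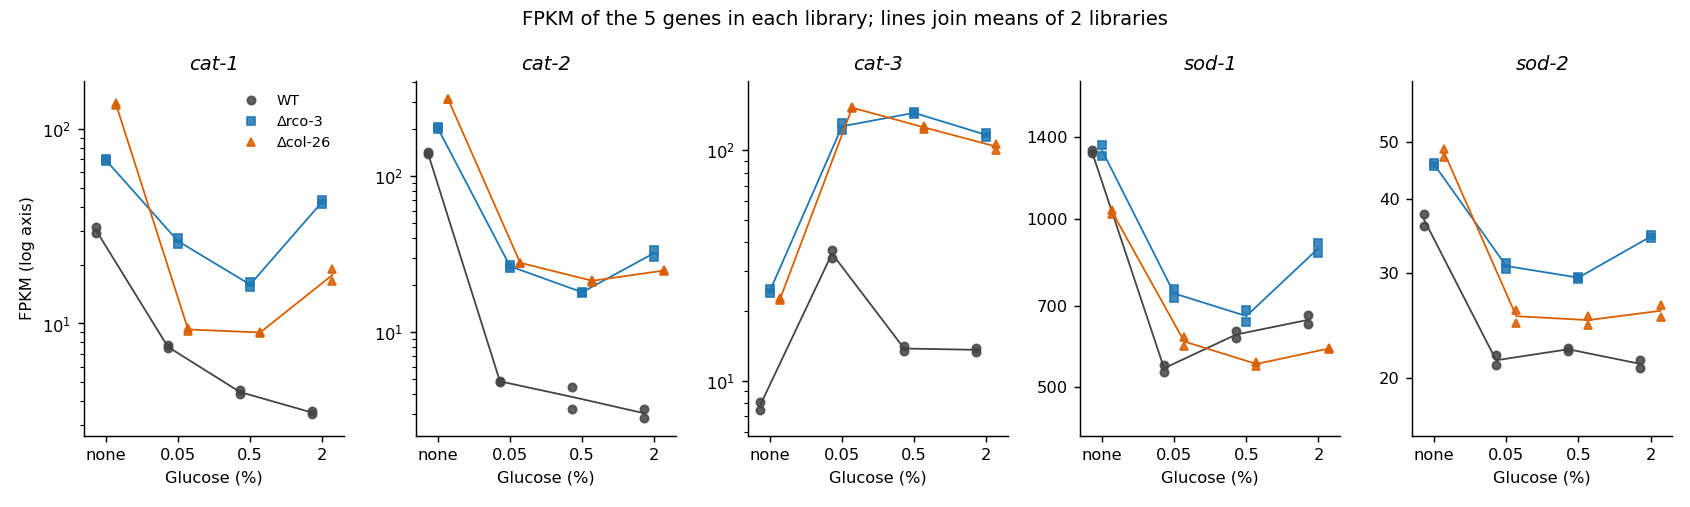
FPKM (log axis) of the 5 genes against the glucose concentration, 1 symbol for each of the 24 libraries and lines through the means of duplicates for WT (circles), Δ*rco-3* (squares) and Δ*col-26* (triangles). All but *cat-3* were highest without carbon in each strain, whereas *cat-3* was lowest there, and in the mutants at 0.5 and 2% glucose it gave 100.4 FPKM or more against 14.1 FPKM or less in the WT.

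*cat-2*, the catalase-peroxidase gene, was the catalase gene with the highest level in mycelia without carbon. In the WT it gave 143 and 139.8 FPKM without carbon, 4.78 and 4.88 at 0.05% glucose, 4.46 and 3.22 at 0.5%, and 3.22 and 2.81 at 2%. In Δ*rco-3* the values were 199.7 and 206 FPKM without carbon, 25.9 and 27.0 at 0.05%, 18.1 and 17.9 at 0.5%, and 33.8 and 30.5 at 2%. In Δ*col-26* they were 314 and 313 FPKM without carbon, 27.8 in both libraries at 0.05%, 21.0 and 21.65 at 0.5%, and 24.8 in both at 2%. Every library without carbon thus lay above every library with glucose, and every mutant glucose library lay above every WT glucose library. The WT groups at 0.5 and 2% glucose were the only neighbours in the order of the 12 means whose libraries overlapped.

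*cat-1*, the conidial large-subunit catalase gene, was likewise highest without carbon in each strain. The WT gave 31.5 and 29.3 FPKM without carbon, 7.72 and 7.44 at 0.05% glucose, 4.35 and 4.52 at 0.5%, and 3.43 and 3.52 at 2%. Δ*rco-3* gave 68.8 and 70.1 FPKM without carbon, 25.7 and 27.45 at 0.05%, 15.5 and 16.3 at 0.5%, and 41.5 and 43.2 at 2%. Δ*col-26* gave 137 and 134 FPKM without carbon, 9.50 and 9.13 at 0.05%, 8.91 and 9.07 at 0.5%, and 16.5 and 19.1 at 2%. No neighbouring groups overlapped in the order of the 12 means. In the WT the libraries at each step of glucose lay below those of the step before, and in both mutants the libraries at 2% lay above those at 0.5%.

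*cat-3*, the hyphal large-subunit catalase gene, ran the other way. Its WT values were 8.03 and 7.48 FPKM without carbon, 37.0 and 34.2 at 0.05% glucose, 14.1 and 13.4 at 0.5%, and 13.9 and 13.3 at 2%. Those of Δ*rco-3* were 24.03 and 25.0 FPKM without carbon, 123 and 131 at 0.05%, 144 and 147 at 0.5%, and 114 and 119 at 2%. Those of Δ*col-26* were 22.8 and 22.4 FPKM without carbon, 152 and 154 at 0.05%, 124 and 127 at 0.5%, and 100.4 and 107 at 2%. The WT had a single peak at 0.05% glucose, and the mutants stayed high over all 3 glucose concentrations. All 6 mutant glucose groups ranked above all other groups, and within them the libraries of Δ*rco-3* at 0.05% and Δ*col-26* at 0.5% overlapped. The WT groups at 0.5 and 2% overlapped as well.

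*sod-1*, the cytosolic superoxide dismutase gene, was again highest without carbon. The WT values were 1311 and 1329 FPKM without carbon, 549.6 and 533 at 0.05% glucose, 630.3 and 613 at 0.5%, and 649 and 673 at 2%. For Δ*rco-3* they were 1358 and 1296 FPKM without carbon, 749 and 723 at 0.05%, 686 and 655 at 0.5%, and 868.1 and 906 at 2%. For Δ*col-26* they were 1037 and 1023 FPKM without carbon, 616 and 592 at 0.05%, 555 and 546 at 0.5%, and 588 and 585 at 2%. The strains overlapped in the order of the means, and neighbours whose libraries overlapped were the Δ*rco-3* and WT groups without carbon, Δ*rco-3* at 0.5% and WT at 2%, WT at 0.5% and Δ*col-26* at 0.05%, and Δ*col-26* at 0.5% and WT at 0.05%.

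*sod-2*, the mitochondrial superoxide dismutase gene, was also highest without carbon in each strain, at a lower level than *sod-1*. In the WT it gave 36.1 and 37.85 FPKM without carbon and 20.8 to 22.5 FPKM in the 6 glucose libraries. Δ*rco-3* gave 45.5 and 46.15 FPKM without carbon and 29.4 to 34.8 FPKM with glucose. Δ*col-26* gave 48.7 and 47.2 FPKM without carbon and 24.6 to 26.6 FPKM with glucose. With glucose the FPKM of the 3 strains did not overlap, with Δ*rco-3* highest and the WT lowest, but median-ratio scaling turned the sign of both mutants against the WT at 0.05% and of the mutants against each other at 0.05 and 0.5% glucose. The ratio of *sod-1* to *sod-2* was largest in the WT without carbon (35.7 ± 0.838, SD, n = 2) and smallest in Δ*col-26* without carbon (21.5 ± 0.280, n = 2).

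The make-up of the catalase transcripts changed with the medium. The FPKM of *cat-1*, *cat-2*, *cat-3* and *cat-4* (NCU05169), a further catalase gene that stayed between 1.11 and 6.66 FPKM, were summed for each library. In the WT the sum was 181 ± 4.45 FPKM (SD, n = 2) without carbon, 49.1 ± 2.15 at 0.05% glucose, 24.1 ± 1.24 at 0.5% and 23.4 ± 0.594 at 2%. Δ*rco-3* reached 299 ± 6.26 FPKM without carbon and stayed between 185 and 198 FPKM in the means with glucose. Δ*col-26* reached 473 ± 2.85 FPKM without carbon and 194, 159 and 150.0 FPKM in the means at 0.05, 0.5 and 2% glucose. At 2% glucose the sum was thus 6.40-fold the WT mean in Δ*col-26* and 8.43-fold in Δ*rco-3*, against 2.61-fold and 1.65-fold without carbon. The composition switched between the same genes in every strain. Without carbon *cat-2* made up 66.3 ± 0.292% of the sum in Δ*col-26*, and 67.9 ± 0.0498% in Δ*rco-3*. It made up 78.2 ± 0.60% in the WT without carbon, and its share was 9.75 to 16.6% in the 9 groups with glucose. *cat-3* made up 4.28 to 8.21% without carbon and 57.2 to 78.9% with glucose. These sums and shares carry no test.

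**Figure D2:**
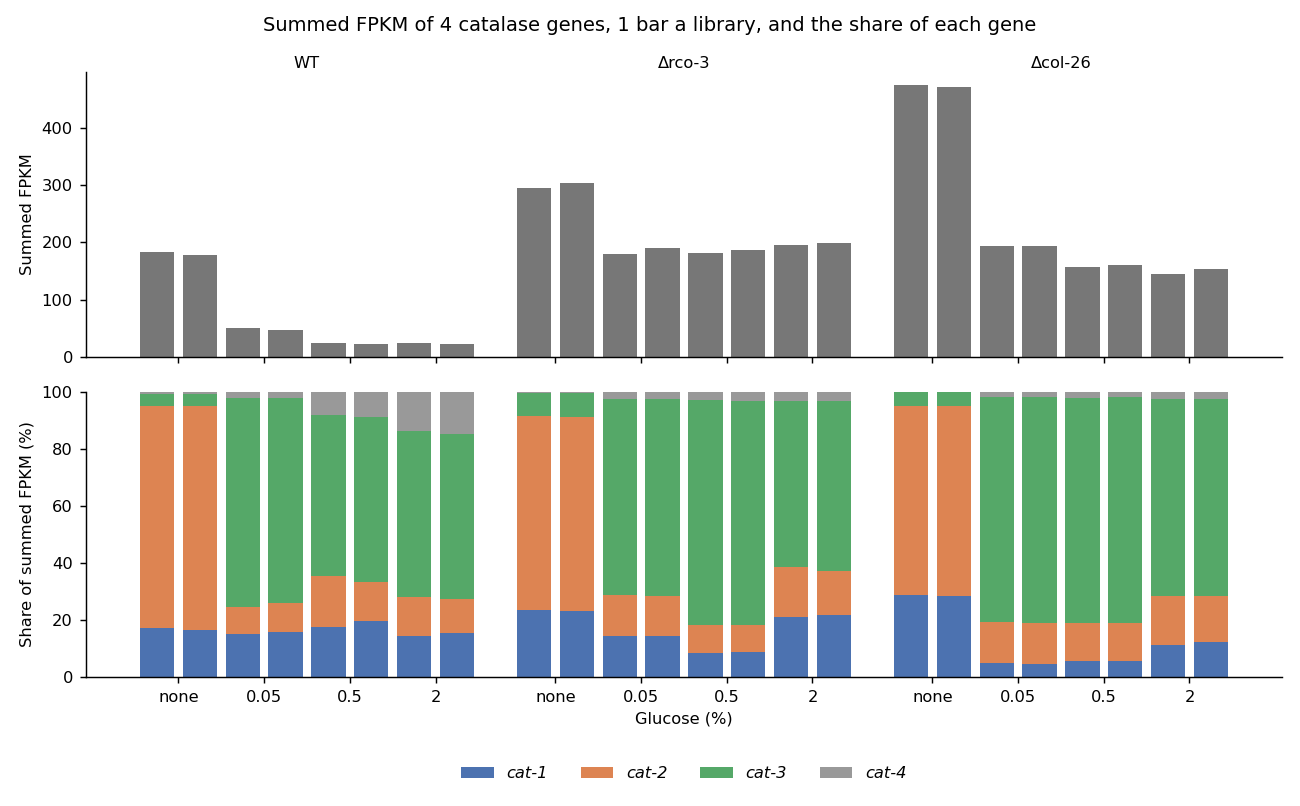
Summed FPKM of 4 catalase genes (upper bars, linear axis from 0) and the percentage of each gene in the sum (lower bars), 1 bar for each of the 24 libraries, by strain and glucose concentration. *cat-2* held 66.3 to 78.2% of the sum in the groups without carbon and *cat-3* 57.2 to 78.9% in those with glucose.

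The first question was how these genes respond to the medium within each strain. A gene was called where limma gave an adjusted p below 0.001, the log2 fold change was at least 1 in size and a group compared had a mean above 20 FPKM. Each of the 5 genes had a group mean above 20 FPKM. Of the 7981 genes tested, so did 4753 genes besides any 1 member, the other members among them. The rest could never be called, so the shares of all genes given below are lower than those among genes of like level. Fold changes are differences in log2(FPKM + 1), which understate the change of genes with low values. Over all 4 media, the F test called 4 of the 5 genes in the WT, where 36.8% of all genes tested were called. It called 3 of 5 in Δ*col-26*, beside 24.7% of all genes, and 3 of 5 in Δ*rco-3*, beside 23.0%. All 3 catalase genes were called in every strain. *sod-1* was called in the WT with a range of 1.29, and its ranges of 0.90 in Δ*col-26* and 0.98 in Δ*rco-3* lay below the threshold. *sod-2* had ranges of 0.62 to 0.91. Quantile normalization, which gives each library the same distribution of values, took *sod-1* past the threshold in both mutants, with ranges of 1.495 in Δ*col-26* and 1.73 in Δ*rco-3*, and median-ratio scaling took it below in the WT (0.74). The value of *sod-1* in Δ*rco-3* also depended on single libraries, and it was 1.02 without library 2 of the group without carbon and 1.02 without library 1 of the 0.5% group, past the threshold.

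Carbon removal in the WT raised *cat-2* the most. Against 2% glucose, 2 of the 5 genes were called higher without carbon, beside 29.3% of all genes in either direction. *cat-2* rose by 5.15 ± 0.08 (SE) on the log2 scale, a 46.9-fold ratio of mean FPKM, and *cat-1* by 2.81 ± 0.06 (8.75-fold). *sod-1* differed by 1.00 ± 0.03, the unrounded value falling just short of the threshold of 1, and it passed without WT library 1 of the group without carbon (1.01) or WT library 2 at 2% (1.02). After quantile normalization it passed at 1.67. *sod-2* was 0.78 ± 0.04 higher and *cat-3* 0.74 ± 0.05 lower, neither reaching the threshold. The median of the 5 genes was 1.00, against 0.31 over all genes tested.

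Against 0.05% glucose the WT showed 4 called genes of 5, beside 26.8% of all genes. *cat-2* rose by 4.61 ± 0.08, *cat-1* by 1.87 ± 0.06 and *sod-1* by 1.29 ± 0.03 without carbon, and *cat-3* fell by 2.06 ± 0.05 on the log2 scale. For *sod-1* the call was lost under median-ratio scaling, where the difference was 0.70. From 0.05 to 0.5% glucose only *cat-3* was called in the WT, 1 of the 5 genes beside 7.47% of all genes, and it was 1.31 ± 0.05 higher at 0.05% (2.58-fold). Between 0.5 and 2% glucose limma called 0 of the 5 genes, beside 0.288% of all genes. There 3 of the 5 (*cat-1*, *cat-2* and *sod-1*) had an unadjusted p under 0.05, as did 44.7% of all genes, and all 5 differences lay between -0.09 and 0.28. The difference of *cat-2*, 0.26, rested on single WT libraries at 0.5% glucose, being 0.074 without library 1 and 0.45 without library 2, neither of them called.

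In Δ*rco-3*, 2 of the 5 genes were called between no carbon and 2% glucose, beside 19.9% of all genes. *cat-2* was 2.62 ± 0.08 higher without carbon (6.31-fold) and *cat-3* fell by 2.202 ± 0.05. The other 3 genes, *cat-1* (0.70 ± 0.06), *sod-1* (0.58 ± 0.03) and *sod-2* (0.39 ± 0.04), were above 0 and below the threshold. After quantile normalization *sod-1* passed it, at 1.31 against 2% and 1.61 against 0.05% glucose. Against 0.05% glucose 3 genes were called, beside 17.9% of all genes, with *cat-1* higher by 1.35 ± 0.06, *cat-2* higher by 2.89 ± 0.08 and *cat-3* lower by 2.33 ± 0.05 without carbon. Between 0.05 and 0.5% glucose limma called 0 of the 5, beside 0.0501% of all genes, and 4 of 5 had an unadjusted p under 0.05, as did 43.1% of all genes. From 0.5 to 2% glucose *cat-1* was the 1 called gene of the 5, beside 0.802% of all genes. It was 1.36 ± 0.06 lower at 0.5% than at 2%, where the mean was 42.4 ± 1.23 FPKM (SD, n = 2) against 15.9 ± 0.573.

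In Δ*col-26*, 3 of the 5 genes were called between no carbon and 2% glucose, beside 20.8% of all genes. *cat-1* was 2.86 ± 0.06 higher without carbon (7.60-fold), *cat-2* was 3.60 ± 0.08 higher (12.6-fold) and *cat-3* fell by 2.15 ± 0.05. Against 0.05% glucose the same 3 genes were called, beside 21.7% of all genes, with differences of 3.72 ± 0.06 for *cat-1*, 3.45 ± 0.08 for *cat-2* and -2.71 ± 0.05 for *cat-3*. *sod-1* and *sod-2* lay between 0.77 and 0.89 in both comparisons. After quantile normalization *sod-1* passed the threshold in both, at 1.45 against 2% and 1.46 against 0.05% glucose. Among the glucose media, limma called 0 of the 5 genes from 0.05 to 0.5%, beside 0.238% of all genes, and 0 from 0.5 to 2%, beside 0.476%. An unadjusted p under 0.05 was found for 3 of 5 in the former (36.4% of all genes) and 4 of 5 in the latter (44.7%). *cat-1* came nearest, 0.91 ± 0.06 lower at 0.5 than at 2% glucose.

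**Figure D3:**
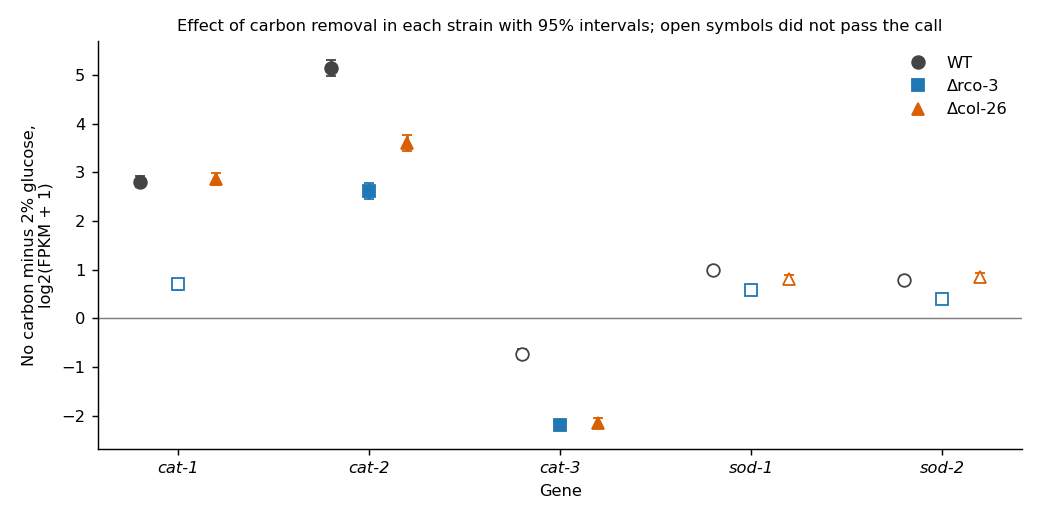
Difference in log2(FPKM + 1) between no carbon and 2% glucose for each of the 5 genes in WT (circles), Δ*rco-3* (squares) and Δ*col-26* (triangles), with 95% intervals from the limma fit over 24 libraries. Filled symbols passed the call and open symbols did not. *cat-2* ranged from 2.62 in Δ*rco-3* to 5.15 in the WT, and *cat-3* lay below 0 in all 3 strains.

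The second question was how the mutants differ from the WT in the same medium. The calls were all of catalase genes, all higher in the mutants, and the superoxide dismutase genes stayed within 0.69 of the WT on the log2 scale. *cat-3* was the only one of the 5 that was called higher than the WT in both mutants in all 4 media. Its largest difference was at 0.5% glucose, where the mean rose from 13.8 ± 0.495 FPKM (SD, n = 2) in the WT to 126 ± 2.32 in Δ*col-26* (9.12-fold) and 145 ± 2.38 in Δ*rco-3* (10.5-fold). Counts of genes over all 8 comparisons with the WT share the WT libraries between the mutants.

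Without carbon, Δ*rco-3* had 2 of the 5 genes called higher than the WT, beside 4.07% of all genes in either direction. *cat-1* was 1.17 ± 0.06 higher (2.28-fold) and *cat-3* was 1.54 ± 0.05 higher (3.16-fold). Both calls were lost under median-ratio scaling, at 0.93 for *cat-1*, and at 1.31 for *cat-3*, whose scaled means were no longer above 20 FPKM. *cat-2* was 0.52 ± 0.08 higher, *sod-2* 0.30 ± 0.04 higher, and *sod-1* did not differ detectably (0.01, 95% interval -0.06 to 0.08). Δ*col-26* had 3 called genes of 5 without carbon, beside 9.64% of all genes. *cat-1* rose by 2.12 ± 0.06 (4.44-fold), *cat-2* by 1.14 ± 0.08 (2.21-fold) and *cat-3* by 1.43 ± 0.05 (2.91-fold), and *sod-1* was -0.36 ± 0.03 from the WT.

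At 0.05% glucose, Δ*rco-3* had 3 called genes of 5, all higher than in the WT, beside 12.3% of all genes. *cat-2* was 2.23 ± 0.08 higher (5.47-fold), *cat-3* 1.81 ± 0.05 higher (3.57-fold) and *cat-1* 1.68 ± 0.06 higher (3.51-fold). In Δ*col-26* 2 genes were called, beside 9.35% of all genes, namely *cat-2* (2.31 ± 0.08) and *cat-3* (2.08 ± 0.05). *cat-1* was at 0.27 ± 0.06 in Δ*col-26*, and that sign turned under median-ratio scaling and quantile normalization. The median difference of all genes in this medium was 0.27 in Δ*col-26* and 0.50 in Δ*rco-3*, beside 0.16 and 0.44 for *sod-1* and 0.24 and 0.51 for *sod-2*, whose signs turned under median-ratio scaling.

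At 0.5% glucose *cat-3* alone was called in Δ*rco-3*, 1 gene of 5 beside 6.48% of all genes, with a difference of 3.31 ± 0.05. *cat-1* (1.63 ± 0.06) and *cat-2* (1.99 ± 0.08) had adjusted p-values of 2.06e-15 and 1.46e-14 and missed the call only because no group mean exceeded 20 FPKM. The highest of these means were 15.9 FPKM for *cat-1* and 18.0 FPKM for *cat-2*. In Δ*col-26* 2 of 5 were called, beside 6.74% of all genes, *cat-3* with 3.10 ± 0.05 and *cat-2* with 2.22 ± 0.08 (5.56-fold). *cat-1* in Δ*col-26* was 0.88 ± 0.06 above the WT.

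At 2% glucose all 3 catalase genes were called higher in Δ*rco-3*, 3 of 5 beside 8.01% of all genes. *cat-1* rose from 3.48 ± 0.0636 FPKM (SD, n = 2) in the WT to 42.4 ± 1.23 (12.2-fold), and the difference of 3.28 ± 0.06 had an adjusted p of 2.86e-20. *cat-2* rose from 3.02 ± 0.290 to 32.2 ± 2.37 FPKM (10.7-fold) and *cat-3* from 13.6 ± 0.438 to 116 ± 3.40 FPKM (8.57-fold). Δ*col-26* had 2 of 5 called, beside 8.91% of all genes, *cat-2* with 2.69 ± 0.08 (8.24-fold) and *cat-3* with 2.84 ± 0.05 (7.62-fold). *cat-1* was 2.07 ± 0.06 higher in Δ*col-26* and missed the call because its mean of 17.8 FPKM was below 20. The median of the 5 genes was 2.07 in Δ*col-26* and 3.01 in Δ*rco-3*, against 0.05 and 0.21 over all genes tested.

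**Figure D4:**
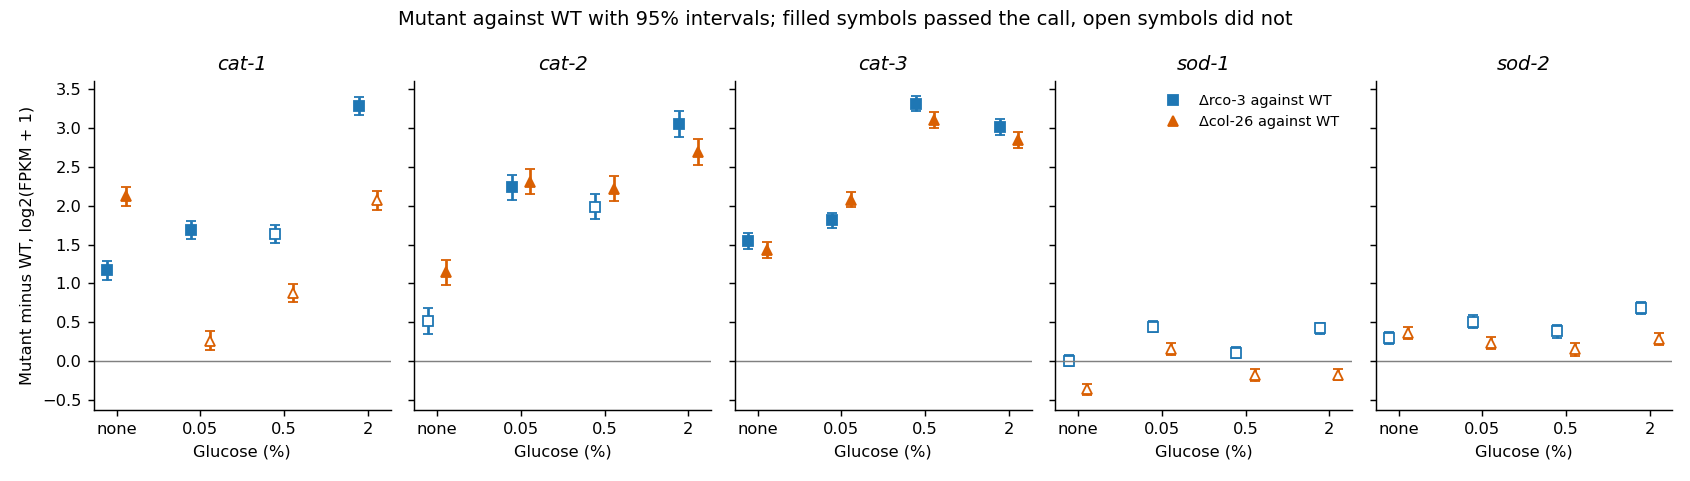
Difference in log2(FPKM + 1) between each mutant and the WT for the 5 genes against the glucose concentration, Δ*rco-3* as squares and Δ*col-26* as triangles, with 95% intervals from the limma fit over 24 libraries. Filled symbols passed the call and open symbols did not. *cat-3* reached 3.31 and 3.10 at 0.5% glucose, and *sod-1* and *sod-2* stayed between -0.36 and 0.69.

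The mutants were also compared with each other. Without carbon limma called 0 of the 5 genes, beside 5.31% of all genes, and 4 of 5 had an unadjusted p under 0.05, as did 83.1% of all genes. For *cat-1* the difference, Δ*rco-3* minus Δ*col-26*, was -0.95 ± 0.06, and for *cat-2* it was -0.62 ± 0.08. Both passed the call under median-ratio scaling, at -1.33 and -1.005. At 0.05% glucose *cat-1* was called higher in Δ*rco-3*, by 1.42 ± 0.06 (2.85-fold), 1 gene of 5 beside 1.40% of all genes. The interval of the *cat-2* difference, -0.23 to 0.09, covered 0 in that medium. At 0.5% glucose limma called 0 of 5, beside 1.27% of all genes, with an unadjusted p under 0.05 for 5 of 5 and for 71.5% of all genes. At 2% glucose *cat-1* was again called higher in Δ*rco-3*, by 1.21 ± 0.06 (2.38-fold), 1 of 5 beside 2.33% of all genes. *cat-3* differed between the mutants by -0.27 to 0.21 over the 4 media, and these small values changed sign with median-ratio scaling in the other 3 media but not at 0.05% glucose.

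Whether the response to the medium itself differed between strains was tested as a difference of differences in the same fit. For no carbon against 2% glucose, 3 of the 5 genes were called between Δ*rco-3* and the WT, beside 13.7% of all genes. The response of *cat-2* was -2.53 ± 0.11 from that of the WT, that of *cat-1* -2.11 ± 0.08 and that of *cat-3* -1.47 ± 0.07. For *cat-1* and *cat-2* this was a smaller rise without carbon in Δ*rco-3*, and for *cat-3* a larger drop. Between Δ*col-26* and the WT 2 of 5 were called, beside 15.1% of all genes, with values of -1.55 ± 0.11 for *cat-2* and -1.41 ± 0.07 for *cat-3*. *cat-1* did not differ detectably in its response (0.05, 95% interval -0.12 to 0.22). *cat-2* lost the call at a pseudocount of 5, where the value was -0.78. For Δ*rco-3* minus Δ*col-26*, *cat-1* was called at -2.16 ± 0.08, 1 of 5 beside 6.93% of all genes. *cat-2* lay at -0.98 ± 0.11 and passed without Δ*rco-3* library 2 of the group without carbon (-1.01) or of the 2% group (-1.06).

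Between 0.05 and 0.5% glucose, *cat-3* was the called gene for both mutants against the WT. The value was -1.4995 ± 0.07 for Δ*rco-3*, 1 of 5 beside 7.84% of all genes, and -1.02 ± 0.07 for Δ*col-26*, 1 of 5 beside 7.69% of all genes. The WT had fallen from 35.6 ± 1.98 to 13.8 ± 0.495 FPKM (SD, n = 2) between these media. Δ*rco-3* went from 127 ± 6.25 to 145 ± 2.38 FPKM and Δ*col-26* from 153 ± 0.919 to 126 ± 2.32 FPKM. The call in Δ*col-26* was lost without WT library 1 at 0.05% (-0.97) or WT library 2 at 0.5% glucose (-0.99), and at a pseudocount of 5 (-0.84).

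Between 0.5 and 2% glucose, 2 of 5 genes were called between Δ*rco-3* and the WT, beside 1.32% of all genes. *cat-1* had a value of -1.64 ± 0.08, where Δ*rco-3* rose at 2% glucose and the WT libraries at 0.5 and 2% differed by 0.28. *cat-2* had -1.06 ± 0.11, and its call was lost without WT library 1 at 0.5% (-0.87), WT library 2 at 2% (-0.99) or Δ*rco-3* library 1 at 2% glucose (-0.99), and at a pseudocount of 5 (-0.83). For Δ*col-26* limma called 0 of 5, beside 1.32% of all genes, with an unadjusted p under 0.05 for 4 of 5 and for 48.5% of all genes. *cat-1* there had a value of -1.19 ± 0.08 with an adjusted p of 7.61e-10, and no group mean above 20 FPKM.

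The summed level of markers of conidia and aerial hyphae was higher without carbon than with glucose in each strain. It was also higher in each mutant than in the WT in each medium. The mean levels of *cat-1*, *cat-2* and *sod-2* had the same order. At 0.05% glucose, however, *cat-1* in Δ*col-26* turned lower under median-ratio scaling and quantile normalization, and *sod-2* in both mutants under median-ratio scaling. The list held 6 genes, *con-6*, *con-8*, *con-10*, *con-13*, *eas*, which encodes the hydrophobin that coats conidia, and *fl*, a regulator of conidiation, of which *con-6* overlaps another annotated gene. Their summed level was 357 to 366 FPKM in the WT libraries without carbon and 9.31 to 33.9 FPKM in those with glucose. In Δ*rco-3* it was 4633 to 4809 FPKM without carbon and 591 to 912 FPKM with glucose, and in Δ*col-26* 4833 to 5054 and 371 to 745 FPKM. The sum was mostly *eas* in the mutant libraries, where *eas* made up 65.8 to 90.6% of it. In the WT *eas* made up 69.0 to 69.8% without carbon and 88.6 to 90.04% at 0.05% glucose. Its share in the WT was only 27.6 to 30.2% at 0.5% and 40.5 to 49.3% at 2% glucose. Without carbon 4 of the 6 markers were called higher than the WT in each mutant, beside 9.64% of all genes in Δ*col-26* and 4.07% in Δ*rco-3*. With glucose 3 (*con-8*, *con-10* and *eas*) were called higher in each mutant at each concentration. There *con-6*, *con-13* and *fl* had no group mean above 20 FPKM and could not be called. At 0.05, 0.5 and 2% glucose the background was 9.35, 6.74 and 8.91% of all genes in Δ*col-26* and 12.3, 6.48 and 8.01% in Δ*rco-3*. *fl* and *con-13* had no group mean above 20 FPKM in any medium, so neither could be called. The mean of *fl* in Δ*col-26* was 3.04 FPKM without carbon, 2.46 at 0.5% and 2.08 at 2% glucose, below WT means of 4.70, 4.22 and 4.92, and at 0.05% it was 2.15 against 0.555. In Δ*rco-3* the *fl* mean was above the WT mean in each medium, at 10.12 FPKM without carbon and 6.795, 4.465 and 5.665 at 0.05, 0.5 and 2% glucose. At 0.5% the libraries of Δ*rco-3* and the WT overlapped. *con-13* was listed at 0 in all 6 WT glucose libraries and reached 0.59 FPKM at most in the WT without carbon. *cat-3* was lowest without carbon in each strain, where the sum was highest, and was higher in both mutants than in the WT in each medium, as the sum was. The part of these markers in the values of the 3 catalase genes and of *sod-2* was not tested.

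A wider list of antioxidant and reactive oxygen genes was examined beside the 5. It held the 13 genes that the gene table or the annotation of the study's expression table names. These were *cat-4*, 2 thioredoxins, the thioredoxin reductase gene *cys-9*, a glutaredoxin and 5 glutathione transferases. The others were *nox-1*, *nox-2* and *nor-1*, listed under NADPH oxidase. In the 12 strain comparisons, 4 of the 13 genes were called at least once, beside 26.1% of all genes. *nox-2* (NCU10775), the gene of an enzyme that makes superoxide, was called lower than the WT in both mutants at every glucose concentration, 6 of 12 comparisons. At 0.5% glucose it gave 7.86 and 7.77 FPKM in Δ*col-26*, and 13.2 and 12.97 in Δ*rco-3*. The WT gave 44.5 and 46.4 FPKM. The groups did not overlap, and the differences from the WT were -2.40 in Δ*col-26* and -1.72 in Δ*rco-3*.

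The other 3 genes encode glutathione transferases, which join glutathione to reactive compounds. *gst-1* (NCU05780) was called higher than the WT in Δ*rco-3* at 0.5% glucose (1.401) and in Δ*col-26* at 0.5% (1.31) and 2% glucose (1.15), and lower in Δ*col-26* without carbon (-1.17). Its WT libraries at 0.5% glucose, 14.5 and 13.2 FPKM, were the lowest of the 24. NCU00549, annotated as an omega class enzyme, was called higher at 0.05% glucose in Δ*col-26* (1.098) and Δ*rco-3* (1.79). Median-ratio scaling moved the median of all genes there by -0.29 in Δ*col-26* and -0.57 in Δ*rco-3*. The former exceeds the margin of the Δ*col-26* value over the threshold of 1. *gst-4* (NCU10521), which overlaps another annotated gene so that its reads are uncertain, was called higher in Δ*col-26* at 2% glucose than in the WT (1.397) and in Δ*rco-3* (-1.32 for Δ*rco-3* minus Δ*col-26*). The median difference of the 13 genes from the WT at 2% glucose was 0.10 in Δ*col-26*, where all genes had 0.05, and 0.21 in Δ*rco-3*, where all genes had 0.21. Without carbon it was -0.40 in Δ*col-26*, against -0.15 over all genes, and -0.12 in Δ*rco-3*, against 0.22.

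For carbon removal against 2% glucose, 6 of the 13 genes were called in the WT (4 higher, 2 lower), beside 29.3% of all genes. Each mutant had 3 called genes (1 higher, 2 lower), beside 20.8% of all genes in Δ*col-26* and 19.9% in Δ*rco-3*. The 2 lower genes were *cys-9* (NCU08352) and *gst-3* (NCU01320) in each strain, which are named after their values were seen. *cys-9* gave 22.3 and 22.1 FPKM without carbon and 99.4 and 99.5 at 2% glucose in the WT. Its difference was -2.499 in Δ*col-26*, -2.11 in the WT and -1.77 in Δ*rco-3*. This sign was opposite to that of the catalase genes *cat-1* and *cat-2* and the same as that of *cat-3*. *gst-3*, which overlaps another annotated gene, had -2.92, -1.17 and -1.93 in the same order of strains.

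**Figure D5:**
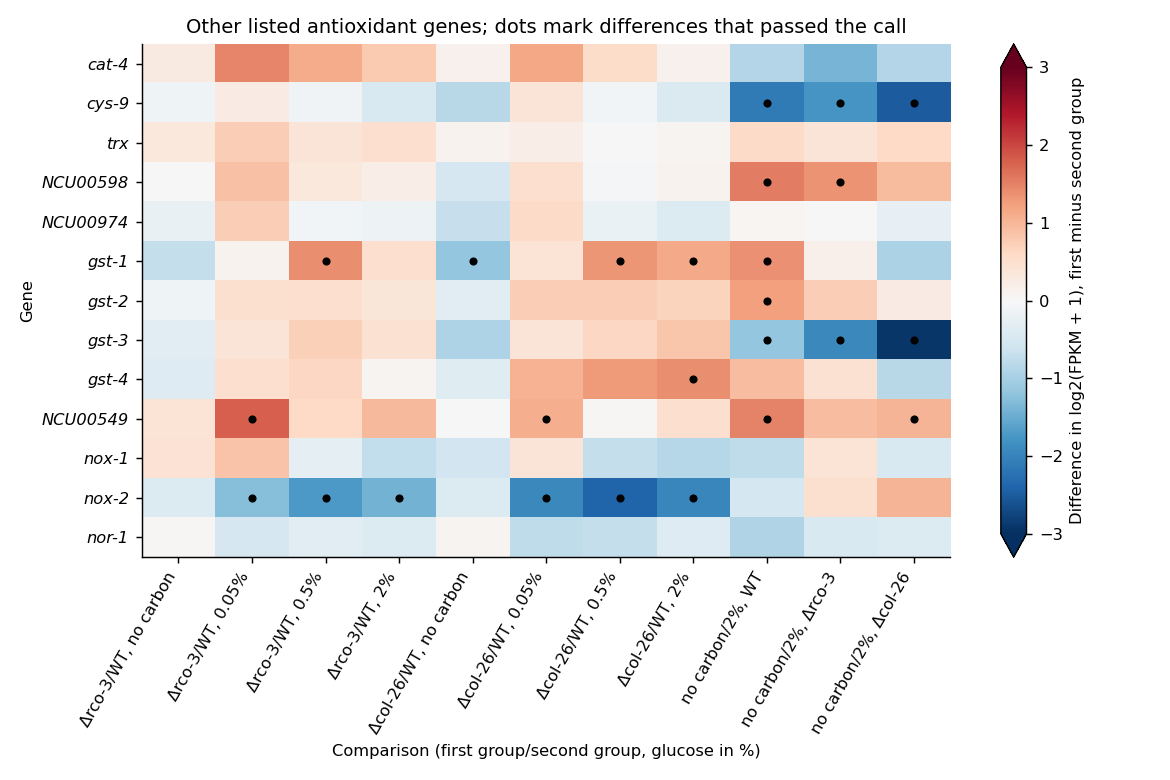
Difference in log2(FPKM + 1), first group minus second group, of 13 other listed antioxidant and reactive oxygen genes in each mutant against the WT by medium and in no carbon against 2% glucose by strain. Red is higher and blue lower in the first group, and dots mark differences that passed the call. *nox-2* was lower in both mutants at each glucose concentration, down to -2.40.

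The genes whose pattern was most like that of each member were listed as a description, by Pearson r of log2(FPKM + 1) over the 24 libraries among 4753 other genes with a group mean above 20 FPKM. The points share strains, media and duplicate cultures, so r mostly reflects the 12 group means. For *cat-1* they were NCU05652 (r = 0.974), *ilv-5* (NCU02397, 0.972) and NCU06265 (0.971). For *cat-2* they were *rib-3* (NCU01449, 0.993), NCU08191 (0.992) and NCU02097 (0.991). For *cat-3* they were NCU05256 (0.976), NCU01136 (0.957) and NCU12046 (0.951). For *sod-1* they were NCU04757 (0.988), NCU03981 (0.978) and NCU04653 (0.976), and for *sod-2* NCU02906 (0.992), NCU10070 (0.989) and NCU05005 (0.988). No gene stood on the list of more than 1 member. Of these 15 genes, 2 were also named by Spearman's rho and 6 after median-ratio scaling, so that the lists depended on the measure.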

How the data were processed

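RNA-Seq of 24 mycelial libraries was analysed. The authors deposited FPKM values with 2 decimals for every locus. Per the paper's methods, reads were trimmed with Trimmomatic 0.36, aligned to predicted transcripts of the OR74A genome with Bowtie2 and counted with RSEM 1.2.8. The submitters' processing notes name HISAT2 2.1.0, Trimmomatic 0.36, RSEM 1.2.8 and DESeq 1.5.1, so the aligner is given differently in both sources. Because FPKM is relative within a library, movement of highly expressed genes alters the values of the rest.

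Libraries were grouped by strain and medium from their labels. The limma package 3.58.1 was used under R 4.3.3 (lmFit, contrasts.fit and eBayes with a variance trend) on log2(FPKM + 1), in 1 fit of 12 groups with 12 residual and 6.31 prior degrees of freedom. It covered 7981 genes with a mean of at least 1 FPKM in at least 1 group, with Benjamini-Hochberg adjustment over all of them. The calling thresholds (adjusted p of 0.001, log2 fold change of 1, 20 FPKM) are those of the methods. Strain comparisons numbered 12, medium comparisons 12, differences between them 7 and F tests over 4 media 3. The script was tested on simulated data. Figures were drawn with matplotlib 3.10.9 in Python 3.11.15. P-values set each difference against the spread between duplicate cultures, estimated over all 12 groups together. Variation between independent strains of the same genotype does not enter them.

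Depth was read from 99 genes of low FPKM whose values were multiples of a smallest step, 98.1% of them within 0.15 of a whole read. These genes were chosen for shared steps, which favours similar depths, and absolute depth is not given by the values.

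The members and the gene lists were chosen with earlier results of these data known. The members are named throughout, listed genes where called in a strain comparison, and the 3 genes of highest r for each member. The antioxidant list was matched by symbol in the gene table (assembly NC12, 9729 of 9730 loci matched) and by the annotation of 3 loci in the study's expression table, because product names were not used here, and peroxiredoxins and other genes without a symbol are therefore not counted. Promoter sequences were not analysed here. Alternatives were pseudocounts of 0.1 and 5, no filter, median-ratio scaling over 7714 genes, quantile normalization, no variance trend, a replicate block, fits of only the groups compared, an adjusted p of 0.05, and each library left out in turn.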

Additional observations from a re-analysis of the deposited data

Results flagged for a closer look

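The response to the medium differed between strains, by the test of the difference itself, in 10 cases among the 5 genes over 7 comparisons. For no carbon against 2% glucose, Δ*rco-3* differed from the WT by -2.11 on the log2 scale for *cat-1*, by -2.53 for *cat-2* and by -1.47 for *cat-3*. For the same media, Δ*col-26* differed from the WT by -1.55 for *cat-2* and by -1.41 for *cat-3*, and Δ*rco-3* differed from Δ*col-26* by -2.16 for *cat-1*. For 0.05 against 0.5% glucose, *cat-3* differed from the WT by -1.4995 in Δ*rco-3* and by -1.02 in Δ*col-26*. For 0.5 against 2% glucose, Δ*rco-3* differed from the WT by -1.64 for *cat-1* and by -1.06 for *cat-2*. The values for the 2 mutants share the WT libraries. With duplicates in every group, no group was large enough for a check of single outlying libraries.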

How the results depend on the processing

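No value that was called changed sign under any alternative run. Of 1530 values of the 5 genes under settings other than leaving out a library, 1475 kept their direction and their side of the threshold, 7 lost the call, 11 gained it and 37 changed sign. Of 880 with a library left out, 857 kept both, 5 lost the call, 6 gained it and 12 changed sign. The causes were not tested.

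Some counts of called genes among the 5 moved. Median-ratio scaling gave 0 in place of 2 for Δ*rco-3* minus WT without carbon, and 2 in place of 0 for Δ*rco-3* minus Δ*col-26* without carbon. For Δ*rco-3* minus Δ*col-26* in no carbon minus 2% glucose, median-ratio scaling and quantile normalization both gave 2 in place of 1, and leaving out libraries gave 1 to 2. A pseudocount of 5 gave 1 in place of 2 for Δ*rco-3* minus WT in 0.5 minus 2% glucose, 1 in place of 2 for Δ*col-26* minus WT in no carbon minus 2%, 0 in place of 1 for Δ*col-26* minus WT in 0.05 minus 0.5%, and 9 in place of 14 for differences of the 13 listed genes. Leaving out libraries gave 1 to 2 for the first of these and 0 to 1 for the third. Quantile normalization added *sod-1* to the called genes in 5 medium comparisons. In no carbon minus 2% they became 3 in place of 2 in the WT (1.67) and Δ*rco-3* (1.31) and 4 in place of 3 in Δ*col-26* (1.45), and in no carbon minus 0.05% 4 in place of 3 in each mutant (1.46 in Δ*col-26*, 1.61 in Δ*rco-3*).

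With median-ratio scaling the signs of small values turned. For Δ*rco-3* minus WT they became -0.23, -0.17 and -0.19 for *sod-1* at 0, 0.05 and 0.5% glucose and -0.078 for *sod-2* at 0.05%. For Δ*col-26* minus WT at 0.05% they became -0.019 for *cat-1*, -0.16 for *sod-1* and -0.069 for *sod-2*. Between the mutants they became -0.25, -0.048 and -0.024 for *cat-3* at 0, 0.5 and 2%, -0.017 and -0.0061 for *sod-1* at 0 and 0.05%, and -0.0097 and -0.020 for *sod-2* at 0.05 and 0.5%. For 0.05 minus 0.5% they became 0.038 for *sod-1* and 0.17 for *sod-2* in the WT, and for *sod-2* they became -0.019 in Δ*col-26*, where 0.5 minus 2% became 0.030, and -0.0092 in Δ*rco-3*. Differences in 0.05 minus 0.5% became -0.25, -0.035 and -0.18 for *cat-1*, *cat-2* and *sod-2* in Δ*rco-3*, and -0.16 and -0.19 for *cat-2* and *sod-2* in Δ*col-26*. For *sod-1* in Δ*col-26* they became 0.068 in no carbon minus 2% and 0.066 in 0.5 minus 2%.

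Quantile normalization gave -0.061 for *cat-1* in Δ*col-26* minus WT at 0.05%, -0.21 for *cat-3* between the mutants without carbon, 0.073 for *sod-2* in WT 0.05 minus 0.5% and 0.014 in Δ*col-26* 0.5 minus 2%. Its differences in 0.05 minus 0.5% were -0.16 for *cat-1* and -0.051 for *sod-2* in Δ*rco-3*, and -0.13 for *cat-2* and -0.069 for *sod-2* in Δ*col-26*, with 0.099 for *sod-1* in Δ*col-26* in 0.5 minus 2%. A pseudocount of 0.1 gave -0.019 for *cat-1* in Δ*rco-3* in 0.05 minus 0.5% and -0.17 for *cat-1* in Δ*col-26* in no carbon minus 2%.

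Leaving out libraries moved *sod-1* in Δ*rco-3* minus WT without carbon from -0.026 to 0.040, *cat-3* in WT 0.5 minus 2% from -0.017 to 0.052, and *sod-2* in Δ*col-26* 0.05 minus 0.5% from -0.013 to 0.054. Among differences of Δ*col-26* from WT it moved *cat-1* in no carbon minus 2% from -0.050 to 0.15, *cat-2* in 0.05 minus 0.5% from -0.098 to 0.27, and *sod-1* in 0.5 minus 2% from -0.030 to 0.022.

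Deviations of same-numbered libraries correlated at -0.20 to 0.12 over 66 pairs of groups, so the values gave little sign of pairing by replicate number. They cannot show whether same-numbered cultures were grown or handled together. With a replicate block the counts of calls stayed at 20, 19, 10 and 10. The promoter comparison was not run.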

Other observations

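*ccg-1* (NCU03753, also known as *grg-1*), a gene repressed by glucose, was listed apart from the markers of conidia and belongs to none of the comparisons above. What sets its level in each strain was not tested. In the WT it gave 12605 and 12826 FPKM without carbon, 721 and 703 at 0.05% glucose, 302 and 307 at 0.5%, and 338.3 and 338.2 at 2%. In Δ*rco-3* it gave 11242 and 11286 FPKM without carbon, 1846 and 1721 at 0.05%, 1037 and 1028 at 0.5%, and 1909.9 and 2041 at 2%. In Δ*col-26* it gave 24775 and 24392 FPKM without carbon, 1438 and 1418 at 0.05%, 1003 and 978 at 0.5%, and 2068 and 1853 at 2%. In both mutants the 2% libraries lay above those at 0.5%, as they did for *cat-1*, *cat-2* and *sod-1*. In the WT without carbon *ccg-1* was at about the level of Δ*rco-3*.

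*nox-1* (NCU02110), an NADPH oxidase gene that passed no strain comparison, differed between strains in its response to glucose and was named after its values were seen. In the WT it went from 16.1 and 16.6 FPKM at 0.05% to 36.6 and 36.0 at 0.5% glucose. In Δ*rco-3* it gave 29.1 and 31.4 FPKM at 0.05% and 29.1 and 30.5 at 0.5%, and in Δ*col-26* 21.5 and 22.2 and then 21.45 and 21.8. The differences of the mutant responses from that of the WT were 1.12 and 1.11, with Δ*rco-3* given first. Both passed the call, beside 7.84 and 7.69% of all genes. The median of all genes in these comparisons was 0.24 and 0.20, more than the margin of either *nox-1* value over the threshold of 1. These 2 calls may therefore depend on the scaling. Among the 7 differences of responses, 3 were called for *nox-1*. The remaining call was for no carbon against 2% glucose between Δ*rco-3* and the WT, beside 13.7% of all genes. There the median of all genes was 0.011. The *nox-1* mean was 34.5 FPKM at 2% glucose and 20.1 without carbon in the WT, and 20.4 and 27.4 FPKM in Δ*rco-3*.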
